A study of Mus musculus with 2 samples.

Results

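The genes of Wnt signalling at the cell surface were examined for chromatin accessibility in mouse mammary organoids. They comprised 41 of the 21911 protein-coding genes of the GENCODE M21 annotation (mm10). The 41 genes were every Wnt and Frizzled gene (19 Wnt ligands and 10 Fzd receptors), the co-receptors Lrp5 and Lrp6, the 4 R-spondins, their receptors Lgr4, Lgr5 and Lgr6, the ubiquitin ligases Znrf3 and Rnf43, and the target gene Axin2. A peak was assigned to a gene when it lay on the gene body or up to 2 kb upstream. After peaks of both libraries that overlapped had been merged, 402 of 275294 regions lay on these genes. Of these, 285 held a peak in both libraries (shared regions), 56 held a peak in DOX alone and 61 in EtOH alone.

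The organoids came from C57BL/6J mice of the genotype shTRPS1.34 ki/+; CAG-rtTA3 tg/+. These mice carry an shRNA against Trps1, a GATA-type repressor, that is switched on by doxycycline through a transactivator under the ubiquitous CAG promoter. Organoids of this genotype received doxycycline at 0.1 ug/ml (DOX) or ethanol (EtOH) for 7 days. Both groups carried the shRNA allele, so that doxycycline itself differed between them too, and both grew in a medium containing Neuregulin, Noggin and R-spondin, so that an R-spondin protein was present in either condition. The paper describes the organoids of both treatments as matched. Each group was 1 library, with the cells of several mice mixed. There was thus no replicate check and no p-value, and the 95% intervals given here cover counting error only. The shRNA acts on the mRNA, so accessibility does not show how far Trps1 was depleted.

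Wnt ligands bind a Frizzled receptor together with LRP5 or LRP6, which stabilises beta-catenin and lets TCF/LEF factors switch on targets such as Axin2. ZNRF3 and RNF43 remove Frizzled from the cell surface, and R-spondins, bound to an LGR receptor, neutralise these ligases and so strengthen the response. In the mammary gland WNT4 acts downstream of progesterone, R-spondin 1 supports stem cells, and Lgr5, Lgr6 and Axin2 mark subsets of epithelial cells.

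DOX held 3071 nuclei and 224762118 counts, and EtOH held 3104 nuclei and 211963715 counts, a median of 75296 and 66790 per nucleus. A count is 1 end of a DNA fragment, and CPM are counts scaled to 1000000 counts in shared regions. Nuclei were clustered on the shared regions without those on the 41 genes. Cluster 1, in which the 8 macrophage markers had a median log2 fold of 3.68 over the other nuclei and the general epithelial markers one of -2.16, was called immune-like. It held 1257 DOX nuclei (40.9%) and 271 EtOH nuclei (8.73%). With immune-like nuclei set by their summed markers instead of by cluster, the shares were 46.8% and 16.3%. The remaining clusters are given by number. In clusters 0, 3 and 4 the marker medians above 0 were small. Luminal progenitor markers reached 0.52 in cluster 0, and hormone-sensing luminal markers 0.68 and 0.56 in clusters 3 and 4. In clusters 5 and 6 the fibroblast markers had medians of 1.03 and 1.12. In cluster 2 the general epithelial markers had a median of 0.48 and the lymphocyte markers one of 0.47. The basal, hormone-sensing luminal and luminal progenitor markers had medians of 0.43, 0.28 and 0.17 there. Clusters 0, 3 and 4 were mostly EtOH nuclei, and cluster 2 was mostly DOX nuclei (1498 against 21). Ratios outside the immune-like cluster therefore set DOX nuclei mostly of cluster 2 against EtOH nuclei mostly of clusters 0, 3 and 4. In the whole libraries the summed level of the 8 macrophage markers was 313 CPM in DOX and 137 CPM in EtOH, and that of the 4 epithelial markers was 233 and 307 CPM. Outside the immune-like cluster these levels were 100.0 and 98.03 CPM for the macrophage markers and 329 and 325 CPM for the epithelial markers. The hormone-sensing luminal markers summed to 297 and 328 CPM there, the basal markers to 407 and 373 CPM, the luminal progenitor markers to 217 and 220 CPM, the fibroblast markers to 72.2 and 73.9 CPM, the endothelial markers to 111 and 131 CPM and the lymphocyte markers to 8.04 and 7.25 CPM in DOX and EtOH. The part of these differences in the results was not tested. The ratio of each gene is given over all nuclei, and mostly also with the immune-like cluster left out. The groups shared 23 barcodes, and a barcode does not identify a nucleus across libraries.

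Per kb of shared regions, the highest values were those of Frizzled genes. Fzd7 stood at 34.9 CPM per kb in DOX and 30.3 in EtOH, Fzd4 at 27.6 and 27.5, and Fzd5 at 26.0 and 25.7. These genes had 2 or 3 shared regions each, with most DOX counts within 1 kb of a start site (11437 of 13545 for Fzd7). Genes with many regions along the body average over those too, so the ranking mixes promoters with gene bodies. The R-spondin genes were among the least accessible, from 1.18 (Rspo2) to 3.19 (Rspo1) in DOX and from 1.43 (Rspo2) to 2.40 (Rspo3) in EtOH. Lgr5, with 12 shared regions, stood at 2.02 and 2.49. Not all Frizzled genes were high, since Fzd6 stood at 4.11 and 6.49 and Fzd10 at 4.63 and 5.82. Wnt2 had no shared region, so that 40 genes were compared.

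**Figure D1:**
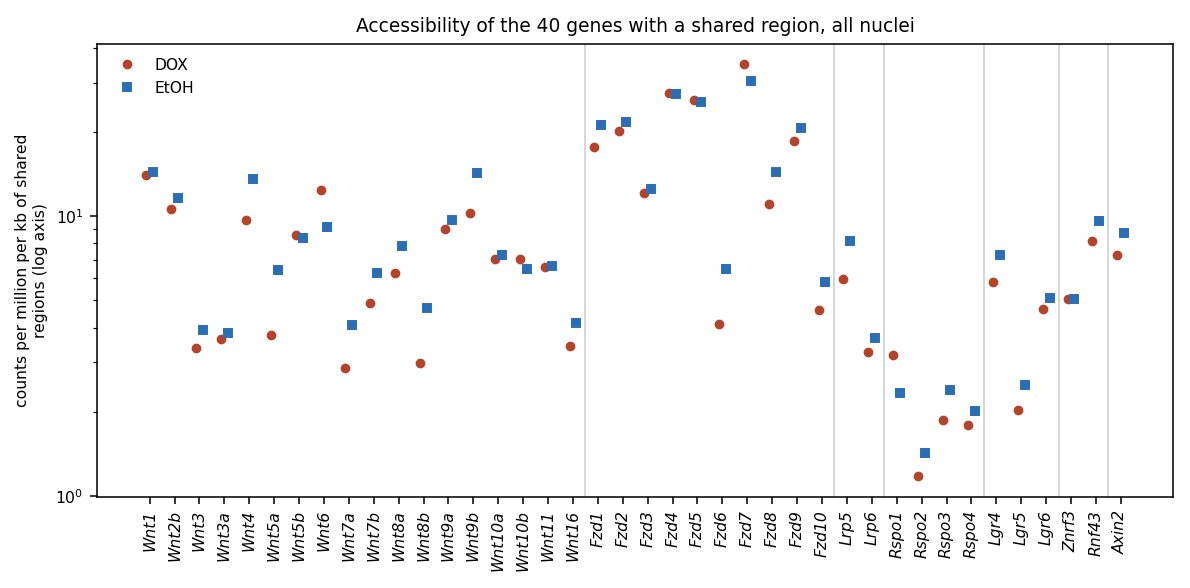
CPM per kb of shared regions (log axis) for the 40 genes with a shared region, in DOX (circles) and EtOH (squares), grouped by role with vertical lines between roles. Fzd7, Fzd4 and Fzd5 are at the top and the R-spondins near the bottom in both libraries.

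Over all nuclei, most of the 40 genes were less accessible in DOX, and with the immune-like cluster left out none differed by 1.5-fold. On the log2 scale, DOX over EtOH was below 0 at 32 genes and above 0 at 8 over all nuclei, with a median of -0.19 against 0.060 over all 17790 protein-coding genes with 100 counts or more. No gene of the 40 was at least 1.5-fold higher (6.58% of all genes were), and 3 were at least 1.5-fold lower, namely Wnt5a, Fzd6 and Wnt8b (7.5% of the 40, against 6.51% of all genes). Outside the immune-like cluster, 24 genes were above 0 and 16 below, with a median of 0.036 against -0.0015 over all genes. There, 0 of 40 were 1.5-fold higher and 0 were 1.5-fold lower, against 2.67% and 2.56% of all genes. In what follows a log2 ratio of DOX over EtOH stands with the bounds of its 95% counting interval. Over all nuclei that interval lay above 0 at 5 of the 40 genes (48.1% of all genes) and below 0 at 25 (32.0% of all genes). With the immune-like cluster left out it lay above 0 at 12 (26.0% of all genes) and below 0 at 8 (27.5%).

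The direction at genes with small ratios depended on the scale. The median log2 ratio of all shared regions was -0.127 over all nuclei and -0.055 outside the immune-like cluster. With these medians set to 0, 15 of the 40 genes were above 0 over all nuclei and 29 outside the immune-like cluster. Over all nuclei Wnt5a was then still 1.5-fold lower, at -0.65, while Fzd6 and Wnt8b, both at -0.53, were not. The number of nuclei with a count was also used, taken per region and summed over the regions of a gene. By that number, too, Fzd6 (-0.56) and Wnt8b (-0.50) fell short of 1.5-fold and Wnt5a (-0.72) did not. The signs that turned with the median scaling were those of Fzd2, Fzd3, Wnt1, Wnt10a, Wnt11, Wnt3a and Wnt9a over all nuclei, and of Fzd9, Lgr4, Lrp5, Wnt11 and Znrf3 outside it.

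**Figure D2:**
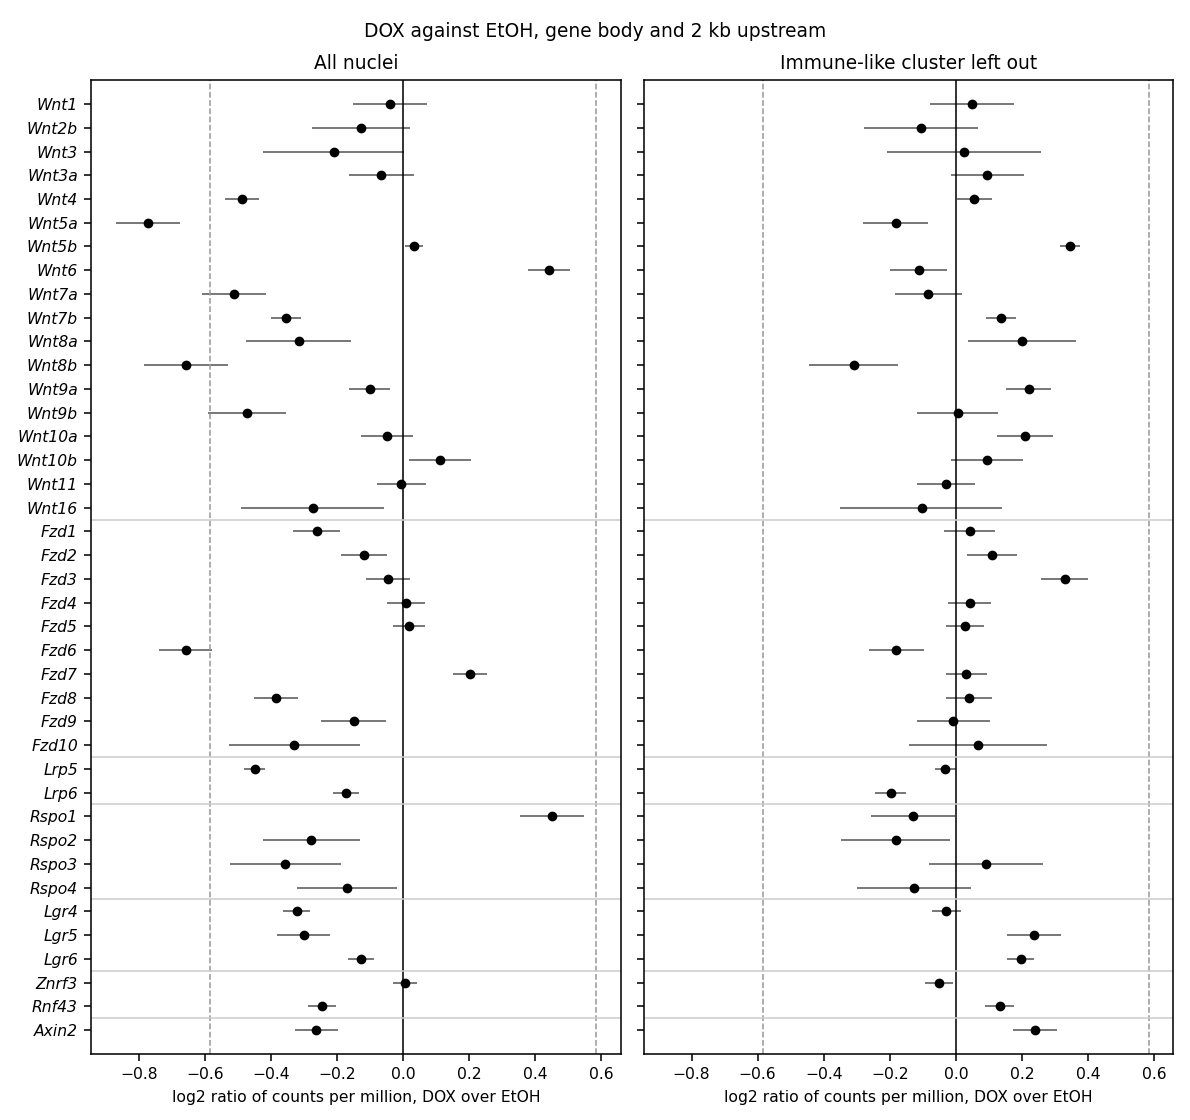
Log2 ratio of DOX over EtOH for 40 genes, over all nuclei (left) and with the immune-like cluster left out (right). Points are ratios of CPM on the gene body and 2 kb upstream, bars are 95% counting intervals, and dashed lines mark 1.5-fold. Wnt5a, Fzd6 and Wnt8b lie past the lower line on the left and no gene lies past either line on the right.

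Among the ligands, Wnt5a and Wnt4 were lower in DOX over all nuclei, and the gap was smaller or gone outside the immune-like cluster. Wnt5a, which signals mainly without beta-catenin and restrains mammary branching, had 13.1 CPM in DOX and 22.4 CPM in EtOH, a log2 ratio of -0.77 (95% counting interval -0.87 to -0.68). Outside the immune-like cluster Wnt5a had 21.1 CPM in DOX and 23.9 CPM in EtOH, a log2 ratio of -0.18 (-0.28 to -0.085). Of its DOX counts, 1.26% came from immune-like nuclei, which made up 40.9% of that library. With the peaks of each library taken whole, shared or not, the log2 ratio of Wnt5a over all nuclei was -0.22 and that of Wnt8b -0.39. Neither reached 1.5-fold, but a region with a peak in 1 library alone has counts on 1 side only in that setting. Both genes had 2 DOX-only regions and 1 EtOH-only region, so these values partly reflect peak calling and do not decide the calls. Wnt4 had 51.2 CPM in DOX and 71.8 CPM in EtOH over all nuclei (log2 ratio -0.49, -0.54 to -0.44) and 79.8 CPM in DOX and 76.8 CPM in EtOH outside (0.056, 0.0045 to 0.11). Its start site region differed more than the whole gene, at 14.2 and 10.7 CPM in DOX and EtOH outside the immune-like cluster, a log2 ratio of 0.42 (0.29 to 0.55).

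Wnt5b was the ligand most accessible in DOX outside the immune-like cluster. It had 212 CPM in DOX and 207 CPM in EtOH over all nuclei, a log2 ratio of 0.034 (0.0065 to 0.061), and 272 CPM in DOX and 214 CPM in EtOH outside, a log2 ratio of 0.35 (0.32 to 0.37). It had 28 shared regions, the most of any ligand, and 3 of its regions also lay on another gene. Wnt5b was also above 0 within each of the clusters 0, 3 and 5, which held at least 50 nuclei of both libraries, at 0.19 (0.052 to 0.32), 0.17 (0.038 to 0.30) and 0.18 (0.040 to 0.33). Within the immune-like cluster, which also held that many, the interval included 0 (0.11, -0.0060 to 0.22). All of these ratios were smaller than the 0.35 outside the immune-like cluster. Wnt7b, made by luminal cells, had 67.3 CPM in DOX and 86.1 CPM in EtOH over all nuclei (-0.36, -0.40 to -0.31) and 101 CPM in DOX and 91.6 CPM in EtOH outside (0.14, 0.090 to 0.18), and Wnt10a had 25.1 CPM in DOX and 26.0 CPM in EtOH (-0.049, -0.13 to 0.030) and 31.2 CPM in DOX and 27.0 CPM in EtOH outside (0.21, 0.12 to 0.29). Both were thus above 0 outside the immune-like cluster and below 0 over all nuclei, although the interval of Wnt10a over all nuclei included 0 and its sign turned with the median scaling. Wnt9a behaved likewise, with 38.4 CPM in DOX and 41.2 CPM in EtOH (-0.10, -0.16 to -0.039) and a log2 ratio of 0.22 (0.15 to 0.29) outside, and its sign over all nuclei turned with the median scaling too.

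Wnt6 was the ligand with the highest ratio over all nuclei, and it was more accessible in immune-like nuclei than in the others. It had 45.3 CPM in DOX and 33.3 CPM in EtOH, a log2 ratio of 0.44 (0.38 to 0.51), and 61.9% of its DOX counts came from immune-like nuclei. Outside that cluster it had 28.2 CPM in DOX and 30.5 CPM in EtOH, a log2 ratio of -0.11 (-0.20 to -0.028). Within the immune-like cluster it was almost equal, at 72.2 CPM in DOX and 72.4 CPM in EtOH (-0.0025, -0.14 to 0.14). Wnt10b had 18.8 CPM in DOX and 17.4 CPM in EtOH over all nuclei (0.11, 0.018 to 0.20), and outside its interval included 0 (0.095, -0.014 to 0.20).

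The remaining ligands were lower in DOX or equal within counting error over all nuclei. Wnt8b had 7.97 CPM in DOX and 12.6 CPM in EtOH (-0.66, -0.78 to -0.53), and at -0.31 (-0.45 to -0.17) it had the lowest log2 ratio of the 40 genes outside the immune-like cluster. Wnt7a had 14.2 CPM in DOX and 20.2 CPM in EtOH (-0.51, -0.61 to -0.42), Wnt9b had 9.63 CPM in DOX and 13.4 CPM in EtOH (-0.47, -0.59 to -0.35), and outside the immune-like cluster both intervals included 0 (-0.083, -0.18 to 0.018 and 0.0057, -0.12 to 0.13). Wnt8a had 5.64 CPM in DOX and 7.03 CPM in EtOH (-0.32, -0.48 to -0.16) and was above 0 outside (0.20, 0.038 to 0.36). Wnt16 had 3.11 CPM in DOX and 3.76 CPM in EtOH (-0.27, -0.49 to -0.057), and outside its interval included 0 (-0.10, -0.35 to 0.14). The intervals of Wnt1 (12.4 CPM in DOX and 12.8 CPM in EtOH), Wnt2b (6.93 CPM in DOX and 7.58 CPM in EtOH), Wnt3 (3.29 CPM in DOX and 3.80 CPM in EtOH), Wnt3a (15.9 CPM in DOX and 16.7 CPM in EtOH) and Wnt11 (28.1 CPM in DOX and 28.2 CPM in EtOH) included 0 over all nuclei and outside the immune-like cluster. Wnt2, a ligand of the mammary stroma, had 3 regions in DOX alone and 1 in EtOH alone. Counts are listed only for a library's own peaks, so no ratio was formed. The start site region of Wnt2, chr6:18030001-18030781, held 335 counts in DOX.

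Of the Frizzled receptors, Fzd6 was lower and Fzd7 higher in DOX over all nuclei. Fzd6, linked to planar cell polarity, had 19.6 CPM in DOX and 30.9 CPM in EtOH, a log2 ratio of -0.66 (-0.74 to -0.58), and 29.0 CPM in DOX and 32.8 CPM in EtOH outside the immune-like cluster (-0.18, -0.26 to -0.10). Fzd7, a receptor of mammary stem and basal cells, had 63.8 CPM in DOX and 55.4 CPM in EtOH (0.20, 0.15 to 0.25), with 48.1% of its DOX counts from immune-like nuclei, and outside that cluster it was equal within counting error (0.032, -0.031 to 0.094). Fzd3 showed the reverse, at 34.01 CPM in DOX and 35.1 CPM in EtOH over all nuclei (-0.046, -0.11 to 0.022) and 45.9 CPM in DOX and 36.6 CPM in EtOH outside (0.33, 0.26 to 0.40). The outside value of Fzd3 included 1 region of 3 that was 2-fold higher, with a log2 ratio of 1.75. Its start site regions differed less there, at 0.17 (0.088 to 0.24). Fzd8 had 30.9 CPM in DOX and 40.3 CPM in EtOH (-0.38, -0.45 to -0.32), Fzd1 28.4 CPM in DOX and 34.1 CPM in EtOH (-0.26, -0.33 to -0.19) and Fzd10 3.65 CPM in DOX and 4.58 CPM in EtOH (-0.33, -0.53 to -0.13), and all 3 intervals included 0 outside. Fzd2 had 31.4 CPM in DOX and 34.1 CPM in EtOH (-0.12, -0.19 to -0.049, a sign that turned with the median scaling) and was above 0 outside (0.11, 0.035 to 0.19), and Fzd9 had 15.2 CPM in DOX and 16.9 CPM in EtOH (-0.15, -0.25 to -0.051) and an interval that included 0 outside (-0.0075, -0.12 to 0.10). Fzd4 (48.0 CPM in DOX and 47.7 CPM in EtOH) and Fzd5 (65.9 CPM in DOX and 65.1 CPM in EtOH) were equal within counting error in both comparisons.

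Both co-receptors were lower in DOX over all nuclei, and Lrp6 remained below 0 outside the immune-like cluster. Lrp5 had 138 CPM in DOX and 188 CPM in EtOH (-0.45, -0.48 to -0.42) and 194 CPM in DOX and 198 CPM in EtOH outside (-0.032, -0.065 to 0.00087). Lrp6 had 92.3 CPM in DOX and 104 CPM in EtOH (-0.17, -0.21 to -0.13) and 91.6 CPM in DOX and 105 CPM in EtOH outside (-0.20, -0.24 to -0.15). The Lrp6 start site regions did not share this, with 31.1 and 31.0 CPM in DOX and EtOH outside (0.0048, -0.078 to 0.087).

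Rspo1 was the R-spondin with the highest ratio over all nuclei, and Lgr5 and Lgr6 were lower in DOX over all nuclei and higher outside the immune-like cluster. Rspo1 had 20.1 CPM in DOX and 14.8 CPM in EtOH, a log2 ratio of 0.45 (0.35 to 0.55), with 61.1% of its DOX counts from immune-like nuclei, and 12.8 CPM in DOX and 14.0 CPM in EtOH outside (-0.13, -0.26 to -0.0024). Within the immune-like cluster Rspo1 was higher in DOX, at 31.7 CPM in DOX and 25.1 CPM in EtOH (0.34, 0.11 to 0.58). Rspo3 had 5.04 CPM in DOX and 6.46 CPM in EtOH (-0.36, -0.52 to -0.19), Rspo2 6.74 CPM in DOX and 8.17 CPM in EtOH (-0.28, -0.42 to -0.13) and Rspo4 6.59 CPM in DOX and 7.41 CPM in EtOH (-0.17, -0.32 to -0.019). Outside, the intervals of Rspo3 and Rspo4 included 0 and that of Rspo2 did not (-0.18, -0.35 to -0.017). These are thinly covered genes, since the regions of Rspo3 held 1072 counts in DOX and 1297 in EtOH.

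Lgr5, which marks stem cells in several epithelia, had 22.0 CPM in DOX and 27.1 CPM in EtOH over all nuclei (-0.30, -0.38 to -0.22) and a log2 ratio of 0.23 (0.15 to 0.32) outside, with 28.9 CPM in EtOH. At its start site it had 14.2 and 10.9 CPM in DOX and EtOH outside (0.38, 0.25 to 0.51). Lgr6 had 100.0 CPM in DOX and 109 CPM in EtOH (-0.13, -0.17 to -0.089) and 131 CPM in DOX and 114 CPM in EtOH outside (0.20, 0.15 to 0.24). Lgr4, the broadly expressed member, had 85.5 CPM in DOX and 107 CPM in EtOH (-0.32, -0.36 to -0.28) and was equal within counting error outside (-0.029, -0.073 to 0.015). Within cluster 5 Lgr6 was lower in DOX, with a log2 ratio of -0.23 (-0.40 to -0.068), and Lgr5 had one of -0.18 (-0.45 to 0.088). Within clusters 0 and 3 the intervals included 0, at 0.029 (-0.39 to 0.42) and 0.27 (-0.10 to 0.64) for Lgr5 and 0.18 (-0.0071 to 0.36) and 0.16 (-0.062 to 0.37) for Lgr6.

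The ligase genes differed by less than 1.5-fold in both comparisons. Rnf43 had 81.5 CPM in DOX and 96.7 CPM in EtOH (-0.25, -0.29 to -0.20) and 111 CPM in DOX and 101 CPM in EtOH outside (0.13, 0.088 to 0.18), and Znrf3 had 122 CPM in DOX and 122 CPM in EtOH (0.0057, -0.030 to 0.041) and 117 CPM in DOX and 121 CPM in EtOH outside (-0.050, -0.092 to -0.0084, a sign that turned with the median scaling). Axin2, a negative regulator that is itself induced by beta-catenin, was lower in DOX over all nuclei at 33.7 CPM in DOX and 40.4 CPM in EtOH (-0.26, -0.33 to -0.20) and higher outside at 50.7 CPM in DOX and 42.9 CPM in EtOH (0.24, 0.17 to 0.31). Within cluster 3 its log2 ratio was 0.46 (0.21 to 0.69), and within clusters 0 and 5 the intervals included 0 (-0.024, -0.38 to 0.31 and 0.060, -0.25 to 0.37). The Axin2 start site had 28.5 and 23.0 CPM in DOX and EtOH outside the immune-like cluster, a log2 ratio of 0.31 (0.22 to 0.40). Over the 37 genes with a shared region within 1 kb of a start site, the promoter log2 ratios had a median of -0.15 over all nuclei (0.093 over all genes) and 0.019 outside (0.018 over all genes). Wnt4, Lgr5, Wnt5b, Wnt7b and Axin2 had the highest promoter ratios outside, from 0.31 to 0.42, and the lowest was that of Rspo2 at -0.37 (-0.73 to -0.015).

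The genes differed between clusters. In immune-like nuclei 30 of the 40 genes were lower than in the other nuclei of the same library in both libraries, as were 38.0% of all genes. Of the 40, 24 were lower by 1.5-fold or more in both libraries, as were 24.5% of all genes. In both libraries 6 of the 40 were higher (54.4% of all genes), and 2 of the 40 were higher by that fold (17.4% of all genes). Wnt5a stood at 0.458 CPM in the immune-like cluster and between 19.8 and 26.6 CPM in clusters 0, 2, 3, 4 and 5. Wnt4 stood at 5.90 CPM there, and among clusters 0 to 5 was highest in clusters 3 (106 CPM) and 4 (101 CPM). Wnt7b, too, was highest in cluster 3, at 137 CPM, and Rspo2 at 15.7 CPM against 4.86 CPM in cluster 0. Lgr5 and Lgr6 were highest in cluster 5, at 74.9 and 194 CPM, against 31.1 and 133 CPM in cluster 0. Cluster 5 was a group of 59 DOX and 120 EtOH nuclei in which the basal markers had a median log2 fold of 0.98 the fibroblast markers one of 1.03 and the lymphocyte markers one of 0.83. Clusters 6 and 7 were shallow, with medians of 10906 and 9229 counts per nucleus. Wnt6, Rspo1 and Fzd7 were higher in the immune-like cluster than in clusters 0, 2, 3, 4 and 5, at 72.3, 30.8 and 80.6 CPM, and Wnt6 was 1.36 (DOX) and 1.25 (EtOH) higher there on the log2 scale than in the other nuclei. These values are openness of chromatin and not RNA.

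**Figure D3:**
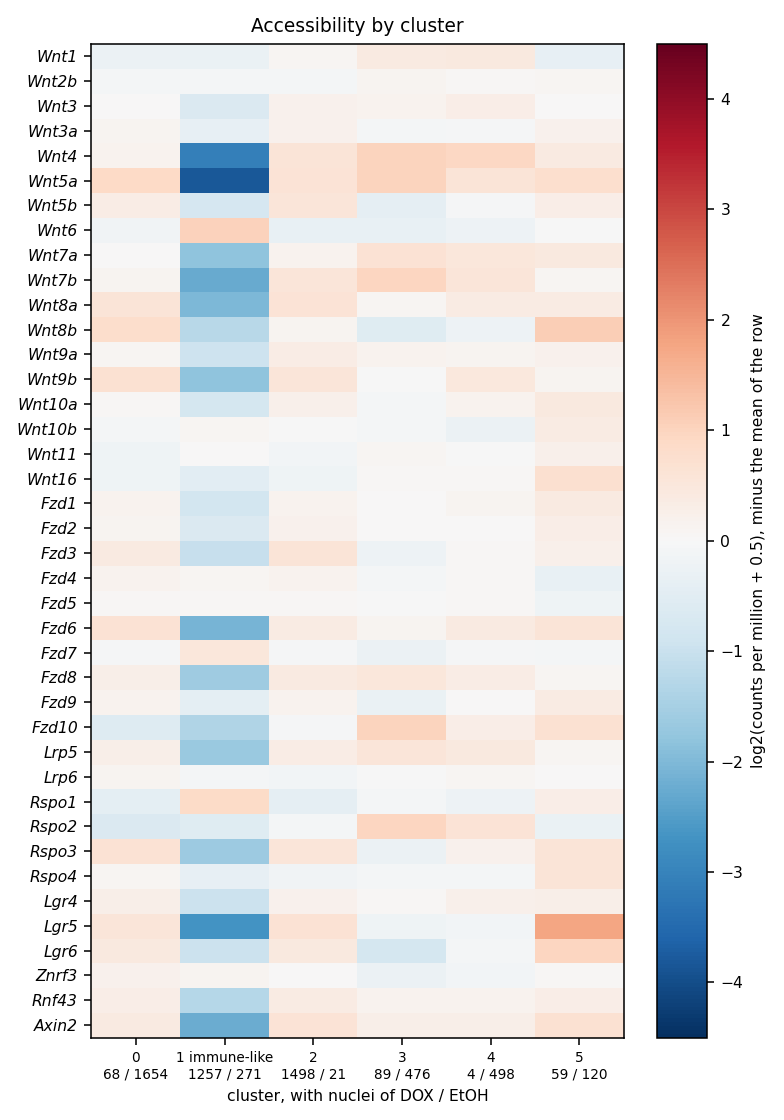
Accessibility of 40 genes in clusters 0 to 5, as log2(CPM + 0.5) of both libraries together minus the mean over the 6 clusters (colour). The numbers under each cluster are its nuclei in DOX and EtOH. Wnt4, Wnt5a, Lgr5 and Axin2 are lowest in the immune-like cluster, where Wnt6, Rspo1 and Fzd7 are highest.

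Within clusters that held at least 50 nuclei of both libraries, the log2 ratio had a median of 0.015 over the genes in cluster 0, 0.069 in the immune-like cluster, 0.090 in cluster 3 and 0.028 in cluster 5, against -0.0073, -0.012, 0.032 and -0.0011 over all genes. In cluster 0, which held 68 DOX nuclei, 1 of 40 genes was 1.5-fold higher (2.97% of all genes) and 4 were 1.5-fold lower (6.21%). In the immune-like cluster 2 of 38 were higher (3.15%) and 0 lower (0.600%), and in cluster 3 2 of 40 were higher (2.14%) and 0 lower (1.67%). Cluster 5 had 0 of 37 in either direction (2.38% and 2.24%). Cluster 2, which held most DOX nuclei outside the immune-like cluster, had 21 EtOH nuclei and was not among these clusters.

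At single regions, 15 of the 285 shared regions were at least 2-fold higher in DOX over all nuclei (5.26%, against 13.0% of all shared regions) and 26 at least 2-fold lower (9.12%, against 13.4%). Outside the immune-like cluster, 283 of the regions had 100 counts, of which 9 were 2-fold higher (3.18%, against 5.38%) and 12 were 2-fold lower (4.24%, against 8.37%). All 4 shares were below those of all shared regions, but these sets differ in kind. The regions on the genes lay on gene bodies or up to 2 kb upstream, while all shared regions include those far from genes. Of the 285, 68 lay within 1 kb of a start site, where 1 was 2-fold higher and 1 was 2-fold lower over all nuclei. The part of this difference in kind was not tested. Of the 12 regions lower outside the immune-like cluster, 11 were also 2-fold lower over all nuclei. Of the 9 higher ones, 1 was, the Fzd3 region. Of the 15 regions higher over all nuclei, 13 had 100 counts outside the immune-like cluster, and 11 of these took more than 50% of their DOX counts from immune-like nuclei.

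**Figure D4:**
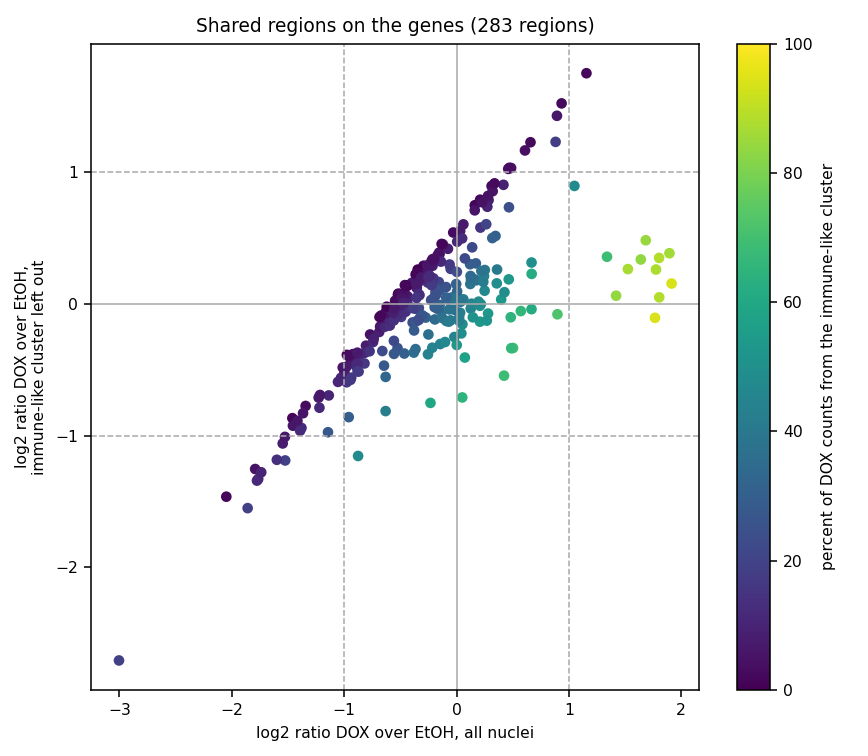
Log2 ratio of DOX over EtOH for 283 shared regions on the genes, over all nuclei (x axis) and outside the immune-like cluster (y axis), coloured by the percentage of DOX counts from that cluster. Regions above 1 on the x axis and near 0 on the y axis took most of their DOX counts from immune-like nuclei, and the lowest regions were low on both axes.

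The 5 regions with the highest ratios over all nuclei lay on Znrf3, Wnt3a and Wnt6. An intronic region of Znrf3, chr11:5287633-5288781, had 6.54 CPM in DOX and 0.762 CPM in EtOH (3.10, 2.76 to 3.46), and 95.8% of its DOX counts came from immune-like nuclei. Outside that cluster it held 59 and 25 counts in DOX and EtOH, below the minimum of 100. Further Znrf3 introns at chr11:5368932-5369823 and chr11:5430569-5431541 had 1.91 (1.59 to 2.25) and 1.90 (1.52 to 2.29), and outside the immune-like cluster 0.15 (-0.68 to 0.97) and 0.38 (-0.27 to 1.04). The exonic Wnt3a region at chr11:59247905-59248799 had 2.04 (1.67 to 2.44) and the Wnt6 region at chr1:74781848-74782762, within 1 kb of an annotated start site, 1.80 (1.49 to 2.13). Outside, the Wnt3a region held 30 and 44 counts, below the minimum, and the interval of the Wnt6 region included 0 (0.050, -0.54 to 0.63).

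The 5 lowest regions kept their direction outside the immune-like cluster. An intronic region of Fzd6 at chr15:39028083-39029084, 22549 bases into the gene, had 0.513 CPM in DOX and 4.12 CPM in EtOH over all nuclei (-3.00, -3.44 to -2.59) and 0.677 CPM in DOX and 4.42 CPM in EtOH outside (-2.71, -3.19 to -2.26), on 88 and 826 counts. The Wnt5a intron at chr14:28517198-28518110 had 1.09 CPM in DOX and 3.01 CPM in EtOH outside (-1.46, -1.86 to -1.08), whereas the other 3 shared regions of Wnt5a had intervals that included 0 there. The Lrp5 intron at chr19:3653499-3654456 had 3.87 CPM in DOX and 11.3 CPM in EtOH (-1.55, -1.75 to -1.35), an Lrp5 exon at chr19:3612294-3613230 -1.34 (-1.63 to -1.06), and an Lgr4 exon at chr2:110011835-110012747 -1.25 (-1.52 to -0.99). Immune-like nuclei gave at most 19.3% of the DOX counts of these regions.

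Outside the immune-like cluster the highest regions lay on Fzd3, Wnt5b and Lrp5 and were named with their values already in view. The Fzd3 region at chr14:65252821-65253852, on an exon, had 7.81 CPM in DOX and 2.32 CPM in EtOH (1.75, 1.52 to 1.99). Wnt5b introns at chr6:119512413-119513211 and chr6:119486269-119487038 had 11.4 CPM in DOX and 3.98 CPM in EtOH (1.52, 1.34 to 1.71) and 5.72 CPM in DOX and 2.44 CPM in EtOH (1.23, 0.99 to 1.48). An Lrp5 intron at chr19:3622815-3623490 had 1.43 (1.24 to 1.62), an Lgr6 intron at chr1:135039207-135040143 1.23 (1.04 to 1.41), and the Axin2 intron at chr11:108933483-108934435, 13610 bases from the start, 1.17 (0.94 to 1.39). The remaining 3 of the 9 lay on Wnt7b (1.03, 0.83 to 1.24), Fzd6 (1.03, 0.71 to 1.35) and Rnf43 (1.02, 0.90 to 1.15). Over all nuclei the 8 regions other than that of Fzd3 had log2 ratios from 0.46 to 0.94. Of the 12 lower regions, those not yet named lay on Wnt4, Wnt8b (-1.28, -1.56 to -1.01), Rnf43, Wnt5b (-1.18, -1.66 to -0.73), Wnt11 (-1.15, -1.58 to -0.75), Lgr4 (-1.06, -1.38 to -0.75) and Lrp6 (-1.01, -1.34 to -0.68), and these too were picked from their values.

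In 4 genes, Fzd6, Lrp5, Rnf43 and Wnt5b, 1 region was at least 2-fold higher and another at least 2-fold lower outside the immune-like cluster. In Fzd6 the region 2436 bases from the start had 3.08 CPM in DOX and 1.51 CPM in EtOH, while the intron 22549 bases from the start was the lowest of the 283, and the region over the start site was equal within counting error (-0.059, -0.16 to 0.038). In Rnf43 the intron at chr11:87689259-87690037 had 19.9 CPM in DOX and 9.78 CPM in EtOH and the intron at chr11:87712065-87712943 had 4.11 CPM in DOX and 9.37 CPM in EtOH (-1.19, -1.39 to -0.99). In Wnt4 the start site was above 0 and the intron at chr4:137281399-137282304, 4362 bases in, was lower, with 4.07 CPM in DOX and 10.2 CPM in EtOH (-1.33, -1.53 to -1.13). Sums over the gene body therefore combined regions of opposite direction.

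**Figure D5:**
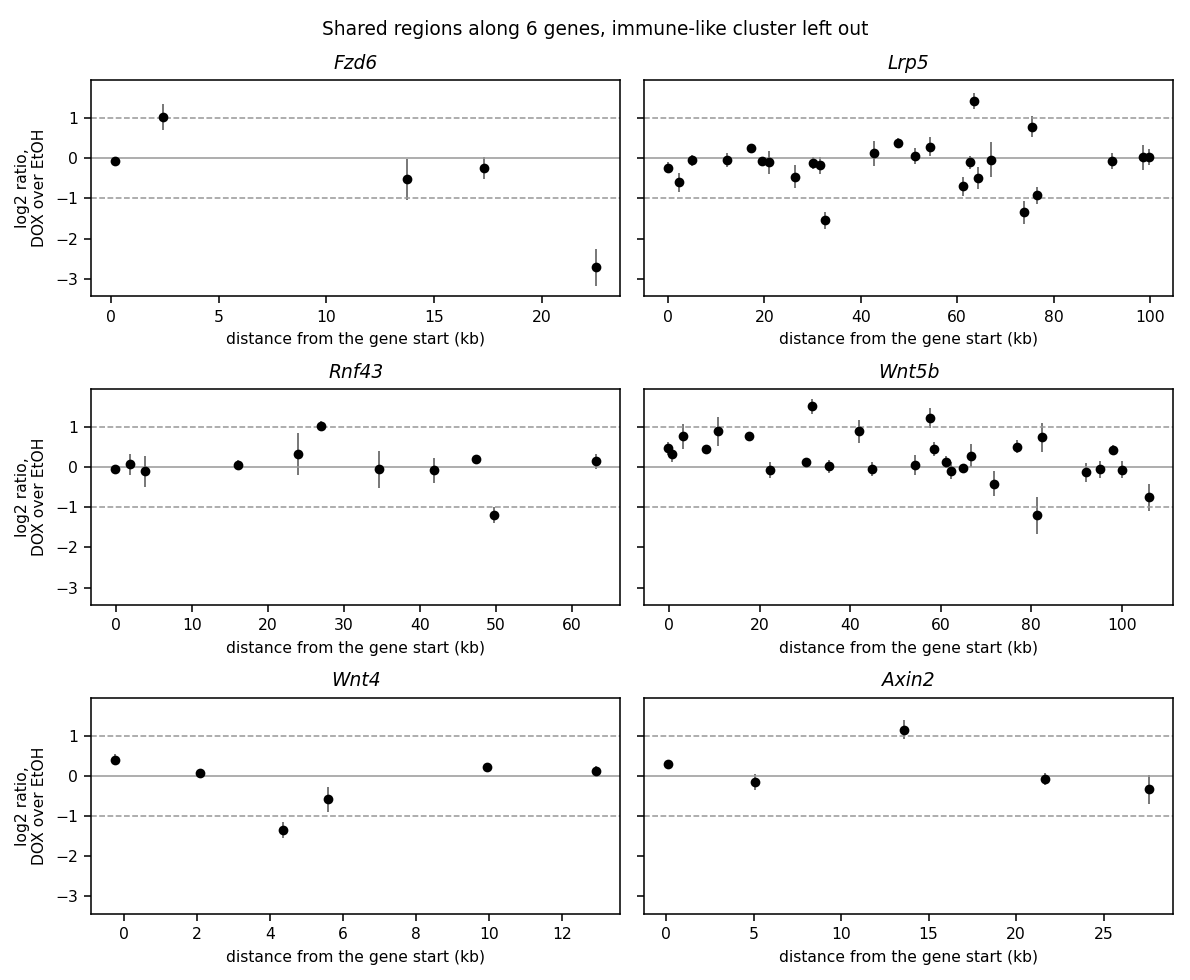
Log2 ratio of DOX over EtOH outside the immune-like cluster for each shared region with 100 counts or more, against its distance from the gene start in kb, for 6 genes. Bars are 95% counting intervals and dashed lines mark 2-fold. Fzd6, Lrp5, Rnf43 and Wnt5b each have regions past both lines.

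The central 300 bases of 7 of these regions are printed, plus strand of the RefSeq genome GRCm38.p6 (mm10), to show the letters of regions called in either direction. Capitals mark matches on either strand to the TCF/LEF letters CTTTGAT, the GATA letters AGATAA, the AP-1 letters TGACTCA or the ETS letters AGGAAGT. The first 3 were lower in DOX in both comparisons and held no match. The next 3 were higher outside the immune-like cluster, and the last was higher over all nuclei with most counts from immune-like nuclei.
Fzd6 chr15:39028434-39028733: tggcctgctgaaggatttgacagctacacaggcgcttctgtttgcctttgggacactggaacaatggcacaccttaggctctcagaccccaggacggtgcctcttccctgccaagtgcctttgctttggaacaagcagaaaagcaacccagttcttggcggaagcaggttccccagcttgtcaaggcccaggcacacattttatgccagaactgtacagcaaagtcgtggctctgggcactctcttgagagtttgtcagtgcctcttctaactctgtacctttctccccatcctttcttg
Wnt5a chr14:28517504-28517803: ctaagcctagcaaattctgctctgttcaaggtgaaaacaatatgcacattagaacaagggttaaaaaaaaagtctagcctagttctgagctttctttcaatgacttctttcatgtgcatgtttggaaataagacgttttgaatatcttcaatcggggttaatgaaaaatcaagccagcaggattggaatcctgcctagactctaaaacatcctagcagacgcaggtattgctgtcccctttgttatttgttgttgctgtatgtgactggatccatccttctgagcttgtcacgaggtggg
Wnt4 chr4:137281702-137282001: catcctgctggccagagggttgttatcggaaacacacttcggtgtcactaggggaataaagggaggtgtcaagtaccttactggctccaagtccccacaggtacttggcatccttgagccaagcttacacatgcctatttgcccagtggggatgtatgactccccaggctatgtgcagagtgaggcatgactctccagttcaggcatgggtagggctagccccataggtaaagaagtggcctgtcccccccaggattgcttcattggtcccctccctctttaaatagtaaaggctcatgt
Wnt5b chr6:119512662-119512961: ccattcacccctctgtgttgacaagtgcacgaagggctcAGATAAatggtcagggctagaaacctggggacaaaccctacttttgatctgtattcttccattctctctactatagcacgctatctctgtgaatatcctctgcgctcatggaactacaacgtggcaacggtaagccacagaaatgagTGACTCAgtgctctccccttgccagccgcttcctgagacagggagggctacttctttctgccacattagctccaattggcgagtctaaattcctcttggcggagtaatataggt
Axin2 chr11:108933809-108934108: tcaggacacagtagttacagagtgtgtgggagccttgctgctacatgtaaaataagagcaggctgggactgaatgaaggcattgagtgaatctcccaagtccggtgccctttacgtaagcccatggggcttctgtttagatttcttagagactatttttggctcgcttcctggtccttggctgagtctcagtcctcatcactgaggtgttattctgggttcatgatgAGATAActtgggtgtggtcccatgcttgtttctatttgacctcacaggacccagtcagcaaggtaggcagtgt
Rnf43 chr11:87689498-87689797: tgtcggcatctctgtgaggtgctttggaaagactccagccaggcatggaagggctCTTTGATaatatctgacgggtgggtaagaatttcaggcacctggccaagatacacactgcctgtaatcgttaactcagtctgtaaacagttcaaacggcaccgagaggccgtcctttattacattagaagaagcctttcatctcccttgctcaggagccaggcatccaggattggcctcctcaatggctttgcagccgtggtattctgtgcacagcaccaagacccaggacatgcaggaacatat
Znrf3 chr11:5369228-5369527: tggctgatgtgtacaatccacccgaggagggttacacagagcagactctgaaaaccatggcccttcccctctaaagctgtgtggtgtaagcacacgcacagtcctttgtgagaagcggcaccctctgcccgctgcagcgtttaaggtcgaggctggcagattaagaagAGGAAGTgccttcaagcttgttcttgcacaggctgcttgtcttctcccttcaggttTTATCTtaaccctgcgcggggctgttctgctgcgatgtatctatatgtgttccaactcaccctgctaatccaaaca

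The Wnt5b intron held a GATA and an AP-1 match, the Axin2 intron a GATA match, the Rnf43 intron a TCF/LEF match, and the Znrf3 intron a GATA and an ETS match. The printed regions do not stand for all called ones. Among those not printed, the higher regions of Fzd6, Wnt7b, Lgr6 and Lrp5 held no match. The lower Lrp5 and Lgr4 exons held an AP-1 match, and the lower Lrp6 region a GATA and an AP-1 match. The GATA letters were in 3 of the 9 regions higher outside the immune-like cluster and in 1 of the 12 lower ones (12.3% of all regions so called). Over all shared regions 13.2% held them, and over the 9084 shared regions that were 2-fold higher outside the immune-like cluster 30.9% did. The TCF/LEF letters were in 1 of the 9 and 0 of the 12 regions, against 7.57% and 3.97% of all regions so called, in 14 of the 285 regions of the Wnt genes (4.91%) and in 4.25% of all shared regions. The ETS letters were in 5 of the 15 regions higher over all nuclei and in 31.2% of all shared regions that were so. Over all shared regions 14.1% held them, and none of the 9 or the 12 did, against 13.0% and 14.1% of all regions so called. Of the 15, 3 held the GATA letters (15.45% of all regions so called), 2 the TCF/LEF letters (4.735%) and 0 the AP-1 letters (16.15%). Of the 26 regions lower over all nuclei, 1 held the ETS letters (11.23%) and 1 the GATA letters (12.41%). The TCF/LEF letters were in 1 of the 26 (4.001%) and the AP-1 letters in 6 (24.4%). The AP-1 letters were in 2 of the 9 and 3 of the 12, against 15.1% and 25.3% of all regions so called, and in 16.4% of all shared regions. With 9 to 26 regions these are descriptions, and a match is not a bound site.

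The start sites of 3 genes with promoter ratios above 0 outside the immune-like cluster are printed as well, from RefSeq (GRCm38.p6). Given are the 250 bases before the RefSeq start in the direction of the gene. By the GENCODE annotation used for the ratios, Wnt4 starts at chr4:137277489, within its printed bases. Axin2 and Wnt4 lie on the plus strand and Wnt5b on the minus strand.
Axin2 chr11:108920099-108920348: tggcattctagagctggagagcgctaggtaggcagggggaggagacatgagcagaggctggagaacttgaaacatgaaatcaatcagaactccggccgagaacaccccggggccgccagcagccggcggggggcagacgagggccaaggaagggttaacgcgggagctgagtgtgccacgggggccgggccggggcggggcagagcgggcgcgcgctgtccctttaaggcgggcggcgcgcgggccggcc
Wnt4 chr4:137277385-137277634: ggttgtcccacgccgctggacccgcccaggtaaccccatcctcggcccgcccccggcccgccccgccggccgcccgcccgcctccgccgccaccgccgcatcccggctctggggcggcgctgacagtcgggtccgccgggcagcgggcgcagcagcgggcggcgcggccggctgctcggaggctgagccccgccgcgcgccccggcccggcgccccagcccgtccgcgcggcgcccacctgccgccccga
Wnt5b chr6:119544348-119544597: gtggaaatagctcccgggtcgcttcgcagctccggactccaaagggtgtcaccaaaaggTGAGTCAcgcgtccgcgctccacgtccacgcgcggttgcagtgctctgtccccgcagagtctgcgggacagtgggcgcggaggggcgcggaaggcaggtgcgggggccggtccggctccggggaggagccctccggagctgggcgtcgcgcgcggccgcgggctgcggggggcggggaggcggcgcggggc

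The RefSeq promoter set, of 300 bases from 250 before to 50 after a start, matched 27 of the 41 genes. The Wnt5b promoter held an AP-1 match, and the printed Axin2 and Wnt4 bases held none of the 4 motifs. The TCF/LEF letters were found in 1 of the 27 promoters, that of Wnt11 (3.70%, against 3.73% of 32851 promoters), and the GATA letters in those of Fzd1 and Wnt8b (7.41%, against 11.2%). The AP-1 letters were in 1 of the 27, that of Wnt5b (3.70%, against 5.20%). The ETS letters were in 1 of the 27, that of Fzd1 (3.70%, against 9.35%).

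Peaks without a counterpart in the other library were no more frequent on these genes than elsewhere. Of 342 DOX peaks on the genes, 56 (16.4%) had none in EtOH, against 21.0% of all DOX peaks, and of 347 EtOH peaks 61 (17.6%) had none in DOX, against 23.3%. Znrf3 and Lgr6 had the most EtOH-only regions, 13 and 11, with 3 DOX-only regions each. Lgr4 had 6 DOX-only and 4 EtOH-only regions, and Wnt3a had 4 DOX-only and 0 EtOH-only regions. Peaks were called in each library alone, and the part that the differing immune-like share had in these counts was not tested.

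Of 47 other Wnt pathway genes, 0 were 1.5-fold higher (6.58% of all genes) and 3 were 1.5-fold lower (6.38%, against 6.51% of all genes) in DOX over all nuclei. The 3 were Pygo1, a nuclear cofactor of beta-catenin (11.2 CPM in DOX and 18.4 CPM in EtOH; -0.72, -0.83 to -0.62), Sostdc1, a secreted antagonist (6.75 CPM in DOX and 10.4 CPM in EtOH; -0.62, -0.76 to -0.49), and Sfrp5, which binds Wnt ligands (14.2 CPM in DOX and 21.4 CPM in EtOH; -0.60, -0.69 to -0.50). Outside the immune-like cluster these had -0.29 (-0.40 to -0.18), -0.11 (-0.25 to 0.033) and -0.066 (-0.16 to 0.031). There, 1 of the 47 (2.13%, against 2.67% of all genes) was 1.5-fold higher, Frzb, another secreted binder of Wnt ligands, with 10.1 CPM in DOX and 6.61 CPM in EtOH (0.62, 0.46 to 0.78), and 0 were lower. The median log2 ratio of the 47 was -0.087 over all nuclei and 0.016 outside.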

How the data were processed

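Single-nucleus ATAC-seq libraries of DOX and EtOH organoids were compared, grouped by the sample labels. Per the file headers, the counts that the authors deposited are whole-number transposition ends per peak and barcode, not normalized, made by cellranger-atac 2.0.0, while the methods name another version. The submitters' processing notes name mm10. All 452777 peaks on assembled chromosomes ended within GRCm38.

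Overlapping peaks were merged, and counts in the 174940 shared regions were scaled to CPM. A gene needed 100 counts and 1.5-fold, a region 100 counts and 2-fold. Ratio intervals (95%) are exact conditional binomial ones on counts divided by 2, since both ends of a fragment are counted. Nuclei were clustered by latent semantic indexing (components 2 to 30, 15 neighbours) and Leiden at resolution 0.5 (scikit-learn 1.9.0, leidenalg 0.10.2), with all deposited barcodes and no doublet caller. Calls and intervals were tested on simulated counts drawn in pairs, as the intervals assume. These held no spread between nuclei, mice or libraries, which the test therefore did not cover.

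The genes, lists and alternatives were chosen with earlier results of these data known. Values were given for every gene with 100 counts, and the 5 highest and 5 lowest regions with 200 counts or more were named. The labels do not state how many mice each library held, the study's texts differ on that number, and a legend names wild-type mice. The labels were followed.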

Additional observations from a re-analysis of the deposited data

How the results depend on the processing

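No paired analysis was possible, although the paper describes the organoids as matched, because DOX and EtOH are single libraries of mixed mice. Of the 3 genes called 1.5-fold lower over all nuclei, 1 (Wnt5a) was called with the median of all shared regions set to 0. With all peaks of each library 1 (Fzd6) was called. By the number of nuclei with a count, taken per region and summed, 1 (Wnt5a) was called. At a 2-fold threshold 0 were called. With all peaks, 1 gene was called higher over all nuclei and 1 outside the immune-like cluster. In that setting a region with a peak in 1 library alone has counts on 1 side only, so its calls partly reflect peak calling. The median gene body ratio was -0.065 with the median scaling and -0.12 by nuclei with a count, and the promoter median was -0.023 with the median scaling. At a 3-fold threshold 10 regions were higher and 8 lower, against 15 and 26 at 2-fold. With nuclei above the 95th percentile of counts left out, 14 regions were 2-fold higher and 38 were 2-fold lower. In that setting 4 genes and 4 other pathway genes were 1.5-fold lower. The shares over all genes and all shared regions are not given for it. Of the other pathway genes, 2 were higher and 1 was lower with the median scaling, 1 was higher with all peaks, 1 was lower by nuclei with a count, and 0 were lower at 2-fold.

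Leaving out the immune-like cluster, as an alternative chosen after seeing the data, gave 0 genes lower, gene body and promoter medians of 0.036 and 0.019, 9 regions higher and 12 lower, and 1 other pathway gene higher and 0 lower. Leaving out nuclei whose barcode was in both libraries, also chosen after seeing the data, left these counts of genes and regions as they were over all nuclei, with medians of -0.20 and -0.15. The cause of these changes was not tested. With 1 library per group, treatment and library cannot be told apart, and differences between mice could not be measured.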
